A study of Rattus norvegicus with 28 samples.

Results

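The mRNAs of the mitochondrial respiratory chain and ATP synthase subunits were examined across INS-1 rat insulinoma cells, a beta cell line, given a GLP-1 receptor agonist or forskolin. Subunits were taken from the TPM table by gene symbol (Nduf subunits, Sdha to Sdhd, Uqcr genes, Cyc1, nuclear Cox subunits and Atp5 genes), with 1 transcript per symbol. The rule found 83 symbols, of which 76 reached a mean of 1 TPM (a length-corrected share of the mRNA in a library) over the 28 libraries, among 10275 genes tested and 17455 symbols in all. By symbol prefix, 35 belonged to complex I, 4 to complex II, 9 to complex III, 12 to complex IV and 16 to complex V, the ATP synthase. The other 7 symbols (Ndufa1, Atp5pb, Cox6a2, Cox6b2, Cox6c-ps1, Cox8b and Cox8c) had a mean under 1 TPM. Ndufa1 and Atp5pb were placed at more than 1 locus in the table, so their low values are uncertain. Subunits encoded in the mitochondrial genome were not analysed here.

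Complexes I and II pass electrons from NADH and succinate to coenzyme Q, complex III passes them on to cytochrome c, and complex IV passes them to oxygen. Complexes I, III and IV pump protons, and the ATP synthase uses the resulting gradient to make ATP. In beta cells this ATP closes the potassium channels that hold the membrane at rest, which couples glucose breakdown to insulin release. Each complex is built from subunits in fixed proportions, most of them encoded in the nucleus, with help from dedicated assembly factors.

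The cells were either wild type (WT) or carried a CRISPR knock-in of a serine-to-alanine change in Med14 (S983A), the scaffold subunit of the Mediator complex. Both genotypes were sampled as controls (CON) and after 1, 8 or 16 h of exendin-4 (Ex-4, 10 nM) or of forskolin (FSK, 10 µM), which activates adenylate cyclase directly. Each of the 14 groups had 2 libraries, numbered as replicates. The study's methods call the replicates biological, but nothing says how cultures were separated, so the p-values measure the spread between these libraries, which may be technical. The knock-in lines were grown from single sorted cells. The methods state for experiments in general that a pair of separately made knock-in lines was used, but not which library came from which line. Line and genotype therefore cannot be told apart.

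The libraries held 38542740 to 51811414 recovered fragments, apart from replicate 2 of S983A 8 h FSK with 83715750. The beta cell genes Ins1 (33700 to 67800 TPM), Iapp and Chga were abundant in all 28 libraries, whereas Prss1 and Amy2a3 of acinar cells were listed at 0 and Sst and Ptprc stayed below 1 TPM. Gcg, a gene of other islet cells, ranged from 6.09 to 1340 TPM and moved with the groups. The summed level of the other-islet markers, nearly all of it Gcg, was 166 and 169 TPM in WT CON, 947 and 966 TPM at WT 16 h Ex-4, 1225 and 1345 TPM at WT 8 h FSK and 761 and 809 TPM at WT 16 h FSK. In S983A it was 6.1 and 6.73 TPM in CON, 45.6 and 43.5 TPM at 16 h Ex-4, 102 and 110 TPM at 8 h FSK and 113.0 and 101 TPM at 16 h FSK. Sst, Ppy and Ghrl did not exceed 0.171 TPM in any library, and the part of this change in the subunit results was not tested. Med14 ranged from 17.2 to 30 TPM, which does not test a point mutation. Differences are given on the log2(TPM + 1) scale with a standard error (SE) from limma fitted to all genes. A subunit mRNA passed the test at a Benjamini-Hochberg adjusted p under 0.05, and it was called where the fold change also exceeded 1.5. TPM is a share of the mRNA measured, so each result was also computed after centring every library on its median gene and after scaling to the ERCC spike-ins, RNAs added in equal amount to each mass of total RNA.

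In WT CON the subunits together made up 3.19% ± 0.102 of all TPM (SD, n = 2). Complex V contributed 1.28% ± 0.0435, complex I 0.878% ± 0.0222, complex IV 0.733% ± 0.0288, complex III 0.237% ± 0.0082 and complex II 0.0542% ± 0.0005. Levels within a complex were far from equal. In complex I they ran up to 1010 TPM for Ndufb8, an accessory subunit of the membrane arm. The lowest was Ndufa4l2 at 2.68 TPM, a hypoxia-associated paralog of Ndufa4 that is placed in complex I here by symbol prefix only. Apart from it and Ndufa10l1 (3.34 TPM), the lowest was Ndufa10 at 35.8 TPM. The 4 subunits of succinate dehydrogenase were the most even, between 114 TPM for the membrane anchor Sdhd and 149 TPM for the other anchor Sdhc. Complex III ran from 68.4 TPM for Uqcrb to 422 TPM for the Rieske iron-sulfur protein Uqcrfs1. Complex IV ran from 0.04 TPM for the alternative subunit Cox4i2, nearly absent from WT, to 1450 TPM for Cox6a1. Apart from Cox4i2 the lowest was Cox7a2 at 130 TPM. In complex V the rotor subunit Atp5f1c had the lowest level, 277 TPM, and the catalytic subunit Atp5f1b the highest, 1950 TPM. Over all 28 libraries the lowest means by complex were those of Ndufa4l2 (3.43 TPM), Sdhd (110), Uqcrb (70.9), Cox4i2 (6.89) and Atp5f1c (252). The highest were those of Ndufb8 (1030 TPM), Sdhb (202), Uqcrh (432), Cox8a (1290) and Atp5f1b (1990).

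In WT the mRNAs for a single protein moved apart, those of the c subunit that forms the proton-driven ring of the ATP synthase. It is encoded by 3 genes, Atp5mc1, Atp5mc2 and Atp5mc3, whose import sequences differ while the mature protein is the same. The 250 bases before their starts are shown because the mRNAs moved apart, together with those of Ndufa5, an accessory subunit near the coenzyme Q site of complex I that rose with Atp5mc1. The sequences are RefSeq windows on GRCr8 (65 of 76 subunits matched a window), all on the minus strand, at chr10:81523346-81523595, chr7:135678219-135678468, chr3:79220665-79220914 and chr4:53971236-53971485. Capitals mark matches, on either strand, to 6 motifs, namely the NRF1 core GCGCATGC, the ETS site CCGGAAG, the cAMP response element TGACGTCA, its half-site TGACG, the YY1 site AAGATGGC and the ERR site TCAAGGTCA.
Atp5mc1: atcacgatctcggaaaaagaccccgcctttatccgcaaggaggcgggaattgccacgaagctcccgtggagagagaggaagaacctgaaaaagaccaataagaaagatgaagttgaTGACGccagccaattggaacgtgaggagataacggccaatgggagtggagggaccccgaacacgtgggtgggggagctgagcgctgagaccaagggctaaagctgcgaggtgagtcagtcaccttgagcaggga
Atp5mc2: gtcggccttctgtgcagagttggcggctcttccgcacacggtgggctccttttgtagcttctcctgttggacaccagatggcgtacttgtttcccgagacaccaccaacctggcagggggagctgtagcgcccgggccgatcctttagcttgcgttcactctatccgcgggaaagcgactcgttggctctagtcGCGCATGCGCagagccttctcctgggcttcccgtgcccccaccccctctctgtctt
Atp5mc3: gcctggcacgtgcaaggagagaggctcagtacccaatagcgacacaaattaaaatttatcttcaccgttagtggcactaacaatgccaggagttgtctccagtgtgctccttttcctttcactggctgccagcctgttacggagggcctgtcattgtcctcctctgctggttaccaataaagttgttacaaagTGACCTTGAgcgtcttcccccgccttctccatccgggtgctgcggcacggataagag
Ndufa5: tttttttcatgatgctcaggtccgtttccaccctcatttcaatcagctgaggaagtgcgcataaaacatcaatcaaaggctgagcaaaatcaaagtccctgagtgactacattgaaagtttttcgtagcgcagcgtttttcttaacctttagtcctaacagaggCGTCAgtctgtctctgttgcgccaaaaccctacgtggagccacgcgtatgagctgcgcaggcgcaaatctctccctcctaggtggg
Atp5mc1 held a half-site of the cAMP response element 134 bases before the start, and Ndufa5 held one on the other strand 86 bases before it. Atp5mc2 held the NRF1 core on both strands in overlapping letters, from 56 bases before the start. Atp5mc3 held the ERR site on the other strand 57 bases before the start. Over the full windows of 300 bases, 49.2% of the 65 matched subunits held the half-site, against 21.2% of all 33469 promoters, and every full element counts as a half-site too. The corresponding shares were 12.3% against 2.47% for the NRF1 core, 30.8% against 8.75% for the ETS site, 23.1% against 3.17% for the YY1 site, 6.15% against 1.83% for the full element and 3.08% against 0.433% for the ERR site. Over these windows, of the other subunits called higher after a treatment, Cox5a held the half-site and Ndufs4, Cox7b and Atp5po did not. Of those called lower, Ndufa11, Ndufb2 and Ndufb4 held it, and Ndufa4l2, Ndufa6, Ndufs7 and Ndufs8 did not. All of these are matches of letters, not sites shown to be bound.

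Atp5mc1 was at 1173 and 1239 TPM in WT CON, at 1303 and 1299 TPM after 1 h Ex-4, at 1869 and 1682 TPM after 8 h and at 1835 and 1728 TPM after 16 h. With FSK it was at 1374 and 1339 TPM after 1 h, at 2910 and 2944 TPM after 8 h and at 2353 and 2179 TPM after 16 h. Both libraries at 8 h and at 16 h of either agent lay above both CON libraries. The difference from CON was 1.28 at 8 h FSK (SE 0.0478, adjusted p = 3.35e-18), 0.91 at 16 h FSK (SE 0.0478, adjusted p = 5.05e-15) and 0.56 at both 8 h and 16 h Ex-4. In S983A it was at 951 and 990 TPM in CON, at 1442 and 1546 TPM after 8 h Ex-4, at 1486 and 1570 TPM after 16 h Ex-4, at 2256 and 2272.5 TPM after 8 h FSK and at 1650 and 1611 TPM after 16 h FSK. The S983A differences from CON of 0.62, 0.65, 1.22 and 0.75 were all called, which made Atp5mc1 the subunit called most often, in 6 of 12 treatment comparisons. The rise at 8 and 16 h passed the test under median-centring and ERCC scaling in both genotypes, but per ERCC the S983A 16 h Ex-4 difference was 0.55 and no longer called.

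Atp5mc2 went the other way after 8 and 16 h FSK. It was at 1535 and 1503 TPM in WT CON, at 1149 and 1108 TPM after 8 h and at 1112 and 1079 TPM after 16 h FSK. It fell by 0.43 at 8 h and by 0.47 at 16 h, although relative to the median gene the 8 h change was -0.04 (adjusted p = 0.498) and per ERCC the 16 h change was -0.10 (adjusted p = 0.376). In S983A it was at 1449 and 1547 TPM in CON and at 857 and 847 TPM after 8 h FSK, a change of -0.81 (SE 0.0425, adjusted p = 2.77e-15) that was called also under ERCC scaling, and after median-centring was -0.48. Atp5mc3 was at 537 and 564 TPM in WT CON, at 779 and 790 TPM after 8 h FSK and at 779 and 769 TPM after 16 h FSK. It rose by 0.51 and 0.49 in WT, and by 0.90 and 0.77 in S983A, where it went from 437 and 427 TPM in CON to 793 and 823 TPM at 8 h and to 726 and 753 TPM at 16 h. As a share of the summed TPM of these 3 genes, Atp5mc1 went from 36.8% ± 0.94 (SD, n = 2) in WT CON to 60.5% ± 0.468 after 8 h FSK and Atp5mc2 from 46.4% ± 1.3 to 23.3% ± 0.611, while Atp5mc3 was at 16.8% ± 0.36 and 16.2% ± 0.143. The sum itself was 3276 ± 43.2 TPM in CON and 4840 ± 2.59 TPM after 8 h FSK. In S983A the share of Atp5mc1 was 33.5% ± 0.0897 in CON and 57.7% ± 0.08 after 8 h FSK, and that of Atp5mc3 went from 14.9% ± 0.7 to 20.6% ± 0.405. These shares do not depend on how libraries were scaled.

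**Figure D1:**
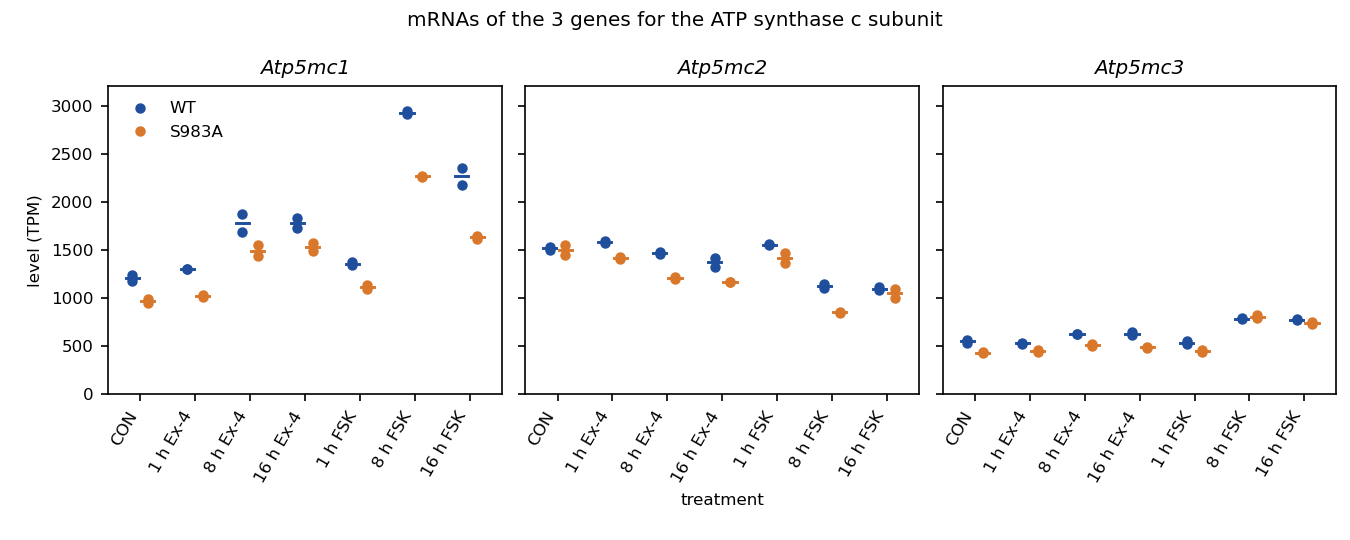
TPM (vertical axis) of Atp5mc1, Atp5mc2 and Atp5mc3 in CON and in the 6 treatments (horizontal axis). Points are the 2 libraries of a group and short lines their mean, in blue for WT and orange for S983A. Atp5mc1 is at 2910 and 2944 TPM after 8 h FSK in WT against 1173 and 1239 TPM in CON. In TPM as deposited, Atp5mc2 is lower after 8 and 16 h FSK than in CON.

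Taken as a whole, the subunit mRNAs kept or raised their share of the mRNA while the median gene was lower in TPM, and the gap was largest after 8 and 16 h of FSK and 16 h of Ex-4 in WT. At 16 h Ex-4 in WT, 29 subunits rose and 5 fell, with 16.3% of all genes tested higher and 52.4% lower. None was called, with 11.8% of all genes called. The median difference was 0.08 for the subunits and -0.16 for all genes. In bulk RNA, fewer cells and less RNA per cell cannot be told apart. After centring 65 rose and 0 fell (33.9% and 25.1% of all genes), and per ERCC 71 rose and 0 fell (33.8% and 9.37%). At 16 h FSK in WT, 41 rose and 12 fell (25.6% and 54.9% of all genes) and 5 were called (34.5%), with a median of 0.12 against -0.20. At 8 h FSK in WT, 28 rose and 24 fell (21.4% and 63.1%) and 2 were called (43.6%), with a median of -0.01 against -0.34. The counts at 8 h depended on the scale, with 63 higher, 0 lower and 21 called after centring (44.6%, 38.1% and 36.8% of all genes), 14 called in edgeR (41.4%), and 20 higher, 16 lower and 2 called per ERCC (17.7%, 55.9% and 43%). Leaving out replicate 1 of WT CON took the 29 rises at 16 h Ex-4 to 18, and leaving out replicate 1 of 16 h Ex-4 took them to 19. The shares of all genes in these reduced fits are not given.

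In S983A the same treatments gave a smaller gap between the subunits and the median gene. At 16 h Ex-4, 14 rose and 14 fell (24.6% and 37.3% of all genes) and 1 was called (11.9%), and the median was 0.02 against -0.06, turning to -0.08 with 3 higher and 12 lower per ERCC (10.6% and 36.9%). At 8 h Ex-4, 14 rose and 17 fell (22.2% and 28.4%) and 1 was called (6.3%). At 16 h FSK, 34 rose and 18 fell (32.1% and 46.8%) and 7 were called (33.3%), with a median of 0.10 against -0.10. At 8 h FSK, 27 rose and 31 fell (26.7% and 57.9%) and 12 were called (46.1%), with a median of -0.04 against -0.28, and with 48 higher and 10 lower after centring (45.5% and 40%). At 8 h Ex-4 in WT, 16 rose and 9 fell (17.4% and 41.8%) and none was called (9.6%).

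Little moved within an hour. After 1 h Ex-4, 0 subunits rose and 2 fell in WT (5.1% and 20.1% of all genes), and 0 rose and 2 fell in S983A (6.81% and 19.4%). After 1 h FSK, 2 rose and 10 fell in WT (6.91% and 37.3%), and 3 rose and 15 fell in S983A (9% and 43.4%), where per ERCC 0 rose and 57 fell (4.37% and 66.7%). None was called at 1 h, against 2.87%, 3.04%, 7.47% and 10.4% of all genes in the same order. The subunit mRNAs are short, with a median exon length of 637.5 bases against 2142 over all genes tested, and the 1067 genes tested under 1000 bases had a median of -0.07 at 16 h Ex-4, -0.24 at 8 h FSK and -0.13 at 16 h FSK in WT. The mitochondrial ribosomal proteins (68 tested) had medians of -0.10, -0.31 and -0.14 and the cytosolic ribosomal proteins (75 tested) of -0.17, -0.18 and -0.25 in these comparisons. In S983A the lists lay closer together at 16 h. The medians at 16 h FSK were 0.10 for the subunits, 0.10 for the mitochondrial and 0.05 for the cytosolic ribosomal proteins. For 16 h Ex-4 they were 0.02, -0.04 and 0.03 in the same order. At 8 h FSK the lists did not lie closer in S983A, with medians of -0.04, -0.34 and -0.33 there against -0.01, -0.31 and -0.18 in WT.

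**Figure D2:**
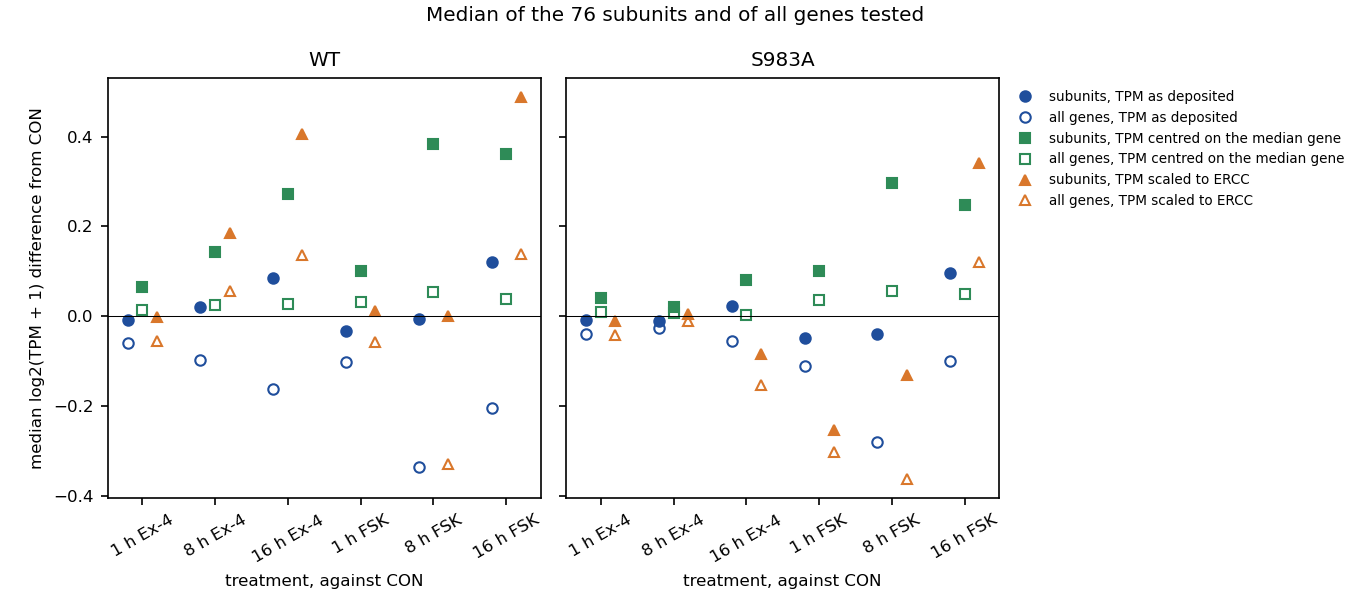
Median log2(TPM + 1) difference from CON (vertical axis) over the 76 subunits (filled) and over all 10275 genes tested (open) for each treatment (horizontal axis), in WT and S983A. Circles are TPM as deposited, squares TPM centred on the median gene and triangles TPM scaled to ERCC. Filled symbols lie above the open ones of the same shape in every comparison. At 16 h FSK in WT the circles are at 0.12 (filled) and -0.20 (open). The shapes are not separate checks of the gap, since both scalings shift all genes of a library nearly alike.

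Complex I mRNAs went both ways in TPM as deposited. At 8 h FSK in WT 7 of the 35 rose and 19 fell, near the 21.4% and 63.1% of all genes. Complex V went both ways too, with 6 of 16 higher and 2 lower. The median of complex I was -0.12, although after centring 24 of its mRNAs rose and 0 fell (44.6% and 38.1% of all genes). Ndufa5 was at 149 and 167 TPM in CON and at 317 and 320 TPM at 8 h FSK, a rise of 1.01 (SE 0.0592, adjusted p = 3.24e-14). It was the other subunit called in WT at 8 h beside Atp5mc1. Ndufa2, an accessory subunit of the NADH-oxidizing arm, rose from 133 and 144 TPM to 207 and 200 TPM, by 0.55. At the low end, Ndufb4 of the membrane arm fell by 0.51, from 226 and 258 TPM to 174 and 165 TPM. Ndufs7, an iron-sulfur subunit at the coenzyme Q site, fell by 0.48, from 132 and 136 TPM to 100 and 92.4 TPM. Ndufa4l2 fell by 0.45 from 1.99 and 3.37 TPM to 1.57 and 1.73 TPM, a low level with CON libraries far apart. Relative to the median gene these differences were -0.12, -0.09 and -0.06, and none of the 3 passed the test there.

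At 16 h FSK in WT complex I had 13 mRNAs higher and 7 lower (25.6% and 54.9% of all genes). After centring 27 were higher and 1 lower (42% and 36.6% of all genes). Ndufs4, an accessory subunit of the NADH-oxidizing arm, was at 149 and 154 TPM in CON and at 233.5 and 234.6 TPM at 16 h, a called rise of 0.62 (SE 0.0344, adjusted p = 1.33e-14). Ndufa11, a subunit where the membrane arm meets the other complexes, was at 548 and 529 TPM in CON and at 340 and 323 TPM at 16 h. Its fall of 0.70 (SE 0.0513, adjusted p = 4.45e-12) was called, and after centring (-0.46) and per ERCC (-0.33) it still passed the test below the fold minimum. Ndufb4 fell by 0.30 but was at 0.07 per ERCC.

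In S983A complex I spread wider at 8 h FSK, from -1.23 to 1.47 against -0.51 to 1.01 in WT. This was not particular to complex I, whose interquartile range was 0.29 in WT and 0.48 in S983A. The range was also wider in S983A for complexes II (0.22 and 0.23), III (0.13 and 0.40), IV (0.29 and 0.44) and V (0.42 and 0.60). Over all genes it was 0.85 and 0.99. Of the 35 complex I mRNAs 7 were higher, 21 lower and 8 called (26.7%, 57.9% and 46.1% of all genes). The higher and lower counts were near those shares. Ndufa5 was at 165 and 152 TPM in CON and at 437 and 444 TPM after 8 h, a rise of 1.47. Ndufs7 was at 134 and 143 TPM in CON and at 58.3 TPM in both libraries after 8 h, a fall of 1.23 (SE 0.0535, adjusted p = 5.88e-17), and relative to the median gene the change was -0.90. Ndufs8, another iron-sulfur subunit of the same arm, fell by 0.75 from 217 and 219 TPM to 132 and 127 TPM. Ndufb4 fell by 0.83, Ndufa11 by 0.78, Ndufb2 by 0.64 and Ndufa6 by 0.62, and Ndufa4l2 fell by 1.11 from 5.53 and 6.24 TPM to 1.99 and 2.39 TPM. After centring Ndufs8 (-0.41), Ndufb4 (-0.50), Ndufa11 (-0.44), Ndufb2 (-0.30) and Ndufa6 (-0.28) still passed the test but were no longer called, while Ndufs7 and Ndufa4l2 (-0.78) were. At 16 h FSK, Ndufa5 rose by 0.68, whereas Ndufa11 fell by 1.03 to 244 and 264 TPM, Ndufa4l2 by 0.97 and Ndufb2 by 0.64. Replicate 2 of S983A 8 h FSK was the deepest library, and its values lay beside those of replicate 1.

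**Figure D3:**
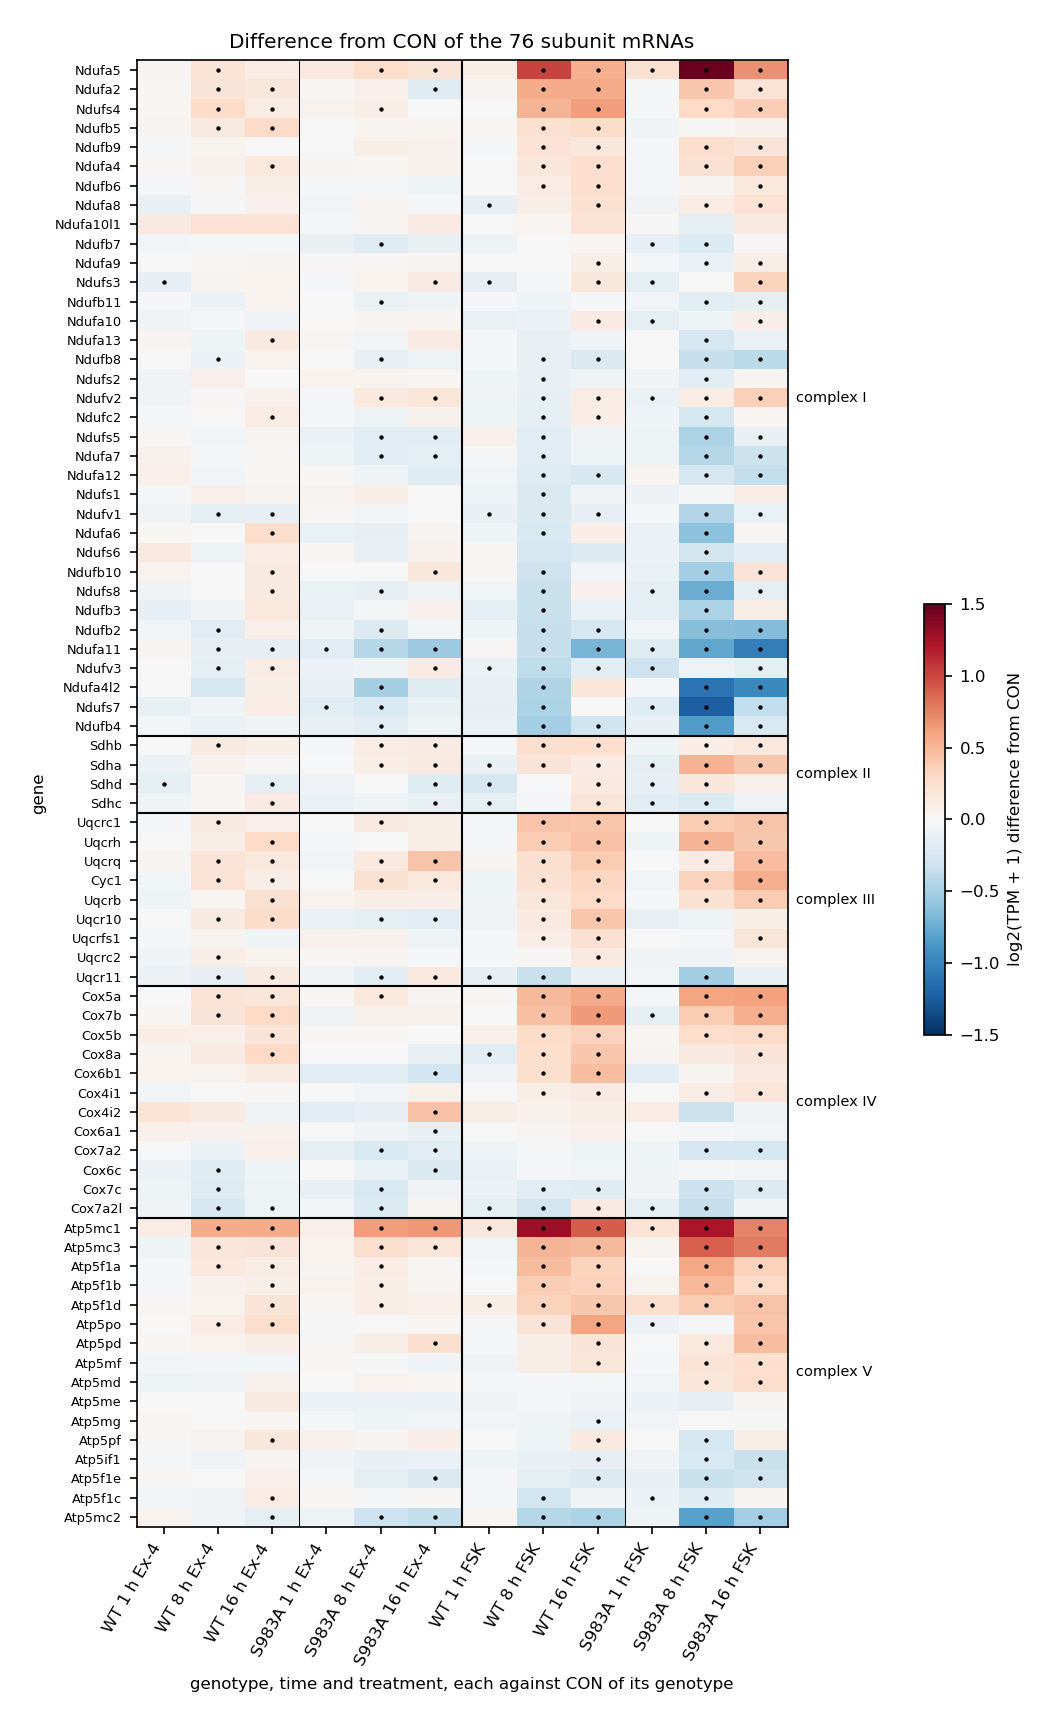
Difference from CON in log2(TPM + 1) (colour) of each of the 76 subunit mRNAs (rows, by complex and then by the WT 8 h FSK value) in the 12 treatment comparisons (columns). Dots mark an adjusted p under 0.05 in limma, and the red ends of complexes I and V are led by Ndufa5 (1.01) and Atp5mc1 (1.28) at WT 8 h FSK while the blue end of complex I holds Ndufb4 and Ndufs7.

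The mRNAs of complex III at 8 h and of complexes II and III at 16 h were mostly higher after FSK in WT. At 1 h FSK 0 of complex II rose and 3 fell, and 0 of complex III rose and 1 fell (6.91% and 37.3% of all genes). All 4 succinate dehydrogenase subunits rose at 16 h FSK in WT (median 0.16), against 25.6% of all genes. Per ERCC and after centring 4 did too (42% of all genes in each). Sdha, the flavoprotein, was at 146 and 143 TPM in CON and at 158 and 157 TPM. Sdhd fell by 0.15 at 16 h Ex-4 in WT, from 113.7 and 115.03 TPM to 104 and 102 TPM, but was at 0.04 after centring and at 0.17 per ERCC. In complex III 7 of 9 rose and 1 fell at 8 h FSK (21.4% and 63.1% of all genes). At 16 h FSK 8 rose and 0 fell (25.6% and 54.9%), with a median of 0.32. After centring and per ERCC 8 and 9 were higher at 16 h (42% of all genes in each). Cyc1, cytochrome c1, went from 286 and 292 TPM in CON to 362 and 357 TPM at 16 h FSK, and the core protein Uqcrc1 from 145 and 138 TPM to 193 and 186 TPM. Uqcr11 was the exception at 8 h, at 384 and 421 TPM in CON and 322 and 314 TPM, a change of -0.34 that was 0.05 after centring. No mRNA of either complex was called in WT, where 43.6% of all genes were called at 8 h FSK and 34.5% at 16 h FSK.

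In complex IV, the oxidase, 6 of 12 rose and 2 fell at 8 h FSK in WT (21.4% and 63.1% of all genes). At 16 h FSK 7 rose and 1 fell (25.6% and 54.9%). Cox7b was at 600 and 647 TPM in CON and at 957 and 981 TPM at 16 h FSK, a called rise of 0.64 (SE 0.0432, adjusted p = 8.9e-13), and it was among the largest rises at 16 h Ex-4, with 794 and 735 TPM and a difference of 0.29. Cox8a reached 1562 and 1516 TPM at 16 h Ex-4 from 1236 and 1276 TPM, also 0.29. Cox5a was called at 16 h FSK in S983A, at 284 and 299 TPM against 193 and 190 TPM in CON (0.61), and rose in WT from 217.5 and 218.9 TPM to 327 and 321 TPM. The ubiquitous Cox4i1 rose by 0.12 at 16 h FSK, from 699 and 738 TPM to 796 and 764 TPM. Other isoforms were Cox7a2, at 123 and 138 TPM in WT CON, and Cox7a2l, which joins complexes into supercomplexes, at 290 and 293 TPM.

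Beyond the c subunit, the 13 other mRNAs of complex V had 4 higher and 1 lower at 8 h FSK in WT (21.4% and 63.1% of all genes). At 16 h FSK 7 were higher and 3 lower (25.6% and 54.9%). At 16 h, 10 and 0 were higher and lower after centring (42% and 36.6%), and 12 and 0 per ERCC (42% and 24.4%). Atp5po, the stalk subunit that holds the catalytic head, was at 298 and 306 TPM in CON and at 465 and 448 TPM at 16 h FSK, a called rise of 0.59 (SE 0.036, adjusted p = 9.99e-14). At 8 h it was at 345 and 345 TPM. The catalytic subunits Atp5f1a and Atp5f1b were at 1774 and 1821 TPM and at 2471 and 2588 TPM after 8 h FSK, from 1291 and 1298 TPM and 1953 TPM in both CON libraries. Atp5f1c, the central stalk, went from 271 and 284 TPM to 225 and 230 TPM, a difference of -0.28 that was 0.11 after centring. The inhibitor Atp5if1 was at 563 and 620 TPM in CON and at 562 and 535 TPM, a difference that did not pass the test.

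**Figure D4:**
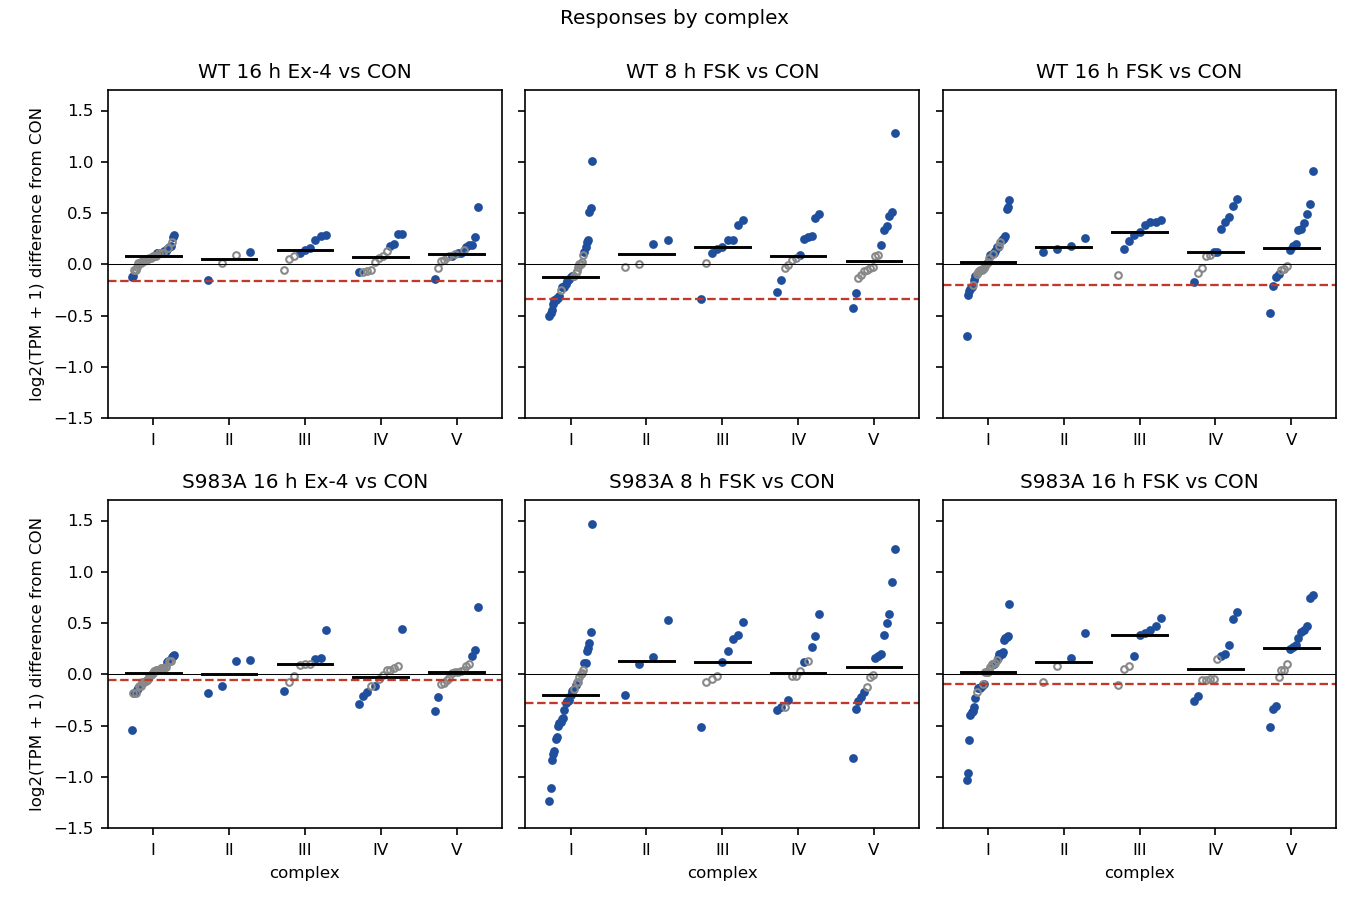
Difference from CON in log2(TPM + 1) (vertical axis) of each subunit mRNA by complex (horizontal axis) for 16 h Ex-4, 8 h FSK and 16 h FSK in WT (top) and S983A (bottom). Filled points have an adjusted p under 0.05, black lines are medians of a complex, and the dashed red line is the median of all genes tested, -0.34 at 8 h FSK in WT, which lies below the medians of all 5 complexes in these WT panels.

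Other genes of the pathway did not all follow. Cytochrome c (Cycs), which carries electrons between complexes III and IV, was at 128 and 135 TPM in WT CON and at 329 and 329 TPM after 8 h FSK, a called rise of 1.32. The phosphate carrier Slc25a3, which feeds the ATP synthase, rose by 0.96 from 688 and 687 TPM to 1336 and 1348 TPM. Of the ADP/ATP carriers, Slc25a5 rose by 0.27 and Slc25a4 fell by 0.11 at 8 h FSK, while after centring all 3 carriers were higher. Of 41 assembly factors tested, 4 rose and 27 fell at 8 h FSK in WT (21.4% and 63.1% of all genes). Their median was -0.43, against -0.34 for all genes, and after centring 17 rose and 17 fell (44.6% and 38.1%). At 16 h 9 rose and 20 fell (25.6% and 54.9%), and after centring 20 rose and 10 fell (42% and 36.6%). In TPM as deposited the falls, out of 41, were near the share of all genes. Cox15, which makes the heme of complex IV, fell by 1.44 and Tmem126b, a complex I assembly factor, by 1.08. Among 13 tested genes of the mobile carriers and coenzyme Q synthesis 3 rose and 9 fell at 8 h FSK in WT. These counts were near the 21.4% and 63.1% of all genes. Coq8a fell by 2.88, from 13.7 and 12.7 TPM to 0.834 and 1.02 TPM, and Coq10b rose by 1.46 from 35.7 and 35.99 TPM to 99.1 and 102 TPM. At 16 h FSK in S983A the assembly factors had a median of 0.14, with 21 higher and 12 lower (32.1% and 46.8% of all genes).

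Whether the response differed between genotypes was tested as an interaction, the S983A difference from CON minus the WT difference. At 16 h Ex-4, 22 subunits had a lower response in S983A and 2 a higher one, whereas 12.9% of all genes had a lower and 29.1% a higher response. None was called (7.24% of all genes). The median was -0.09 for the subunits and 0.09 for all genes. After centring 40 were lower and 0 higher (25.2% and 16.1% of all genes). Per ERCC 68 were lower and 1 was higher (43% and 2.89%) and 22 were called lower (15.2%), with ERCC shares of 1.8% ± 0.217 (SD, n = 2) of TPM in S983A 16 h Ex-4 and 1.52% ± 0.0119 in WT 16 h Ex-4. In TPM as deposited, the count of 22 lower responses fell to 12 without replicate 1 of WT CON and to 11 without replicate 1 of WT 16 h Ex-4. Shares of all genes are not given for these reduced fits. The lowest were Uqcr10 (-0.43, adjusted p = 7.31e-05), Ndufa11 (-0.42) and Cox6b1 (-0.42). Uqcr10 was at 308 and 333 TPM in WT CON and at 395 and 379 TPM after 16 h Ex-4, but at 316 and 371 TPM and at 313 and 299 TPM in S983A. Ndufa11 was at 499 and 491 TPM in WT and at 352 and 361 TPM in S983A after 16 h Ex-4, from levels of 548 and 529 TPM and 497 and 543 TPM in CON. Cox6b1 was at 250 and 225 TPM in WT and at 169 and 185 TPM in S983A after 16 h Ex-4, with CON libraries between 202 and 233 TPM in both. The higher responses were Uqcrq (0.27) and Cox7a2l (0.12), both of which turned negative per ERCC, at -0.16 and -0.31.

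For FSK the interactions were mixed. At 8 h, 22 subunits had a lower and 10 a higher response in S983A (23.3% and 30.3% of all genes), and 2 were called (13.9%), Ndufs7 at -0.75 (SE 0.0757, adjusted p = 1.02e-08) and Ndufa4l2 at -0.66 (adjusted p = 0.00795). In complex I 15 were lower and 4 higher. At 16 h, 18 were lower and 9 higher (22.1% and 35.9%) and 1 was called (17%), Ndufa4l2 at -1.14. The next were Ndufb2 (-0.39), Ndufs7 (-0.38), Atp5mc3 (0.28), Sdha (0.28) and Atp5md (0.28). Sdha went from 120 and 110 TPM to 151 and 153 TPM in S983A. Atp5md was at 437 and 383 TPM in S983A CON and 514 and 467 TPM at 16 h FSK, and its interaction did not pass the test after centring (adjusted p = 0.21). At 8 h Ex-4, 4 were lower and 0 higher (4.42% and 14.2%) and none was called (2.77%). At 1 h, 0 were lower and 0 higher for Ex-4 (0.672% and 0.876%), and 1 was lower and 0 higher for FSK (2.93% and 2.91%). None was called at 1 h, against 0.672% and 1.64% of all genes. At 1 h Ex-4, 0 interactions passed in limma and 0 in edgeR, with 4 in each at an unadjusted p under 0.05.

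At CON, S983A differed from WT in 14 subunits that were higher and 28 that were lower (25.8% and 40.4% of all genes), and 9 were called (19.4%). The median was -0.04 for the subunits and -0.07 for all genes, and the direction depended on the scale, with 21 higher and 11 lower after centring (35.2% and 30.5% of all genes) and 25 higher and 3 lower per ERCC (34% and 16%). Complex V stood lowest, with 1 of 16 higher and 12 lower (median -0.21), which became 7 lower after centring and 1 lower per ERCC. Atp5mg, a small membrane subunit, was at 566 and 622 TPM in WT and at 409 and 419 TPM in S983A (-0.52, adjusted p = 6.76e-12).

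The largest difference was in Cox4i2, the alternative form of subunit 4 of the oxidase, associated with lung and with low oxygen. It was at 0.03 and 0.05 TPM in WT CON and at 12.6 and 14.6 TPM in S983A CON, a difference of 3.81 on the log2(TPM + 1) scale (SE 0.17, adjusted p = 3.7e-16). Cox4i2 reached a mean of 1 TPM only through the S983A libraries, since no WT library exceeded 0.276 TPM. The adjusted p is therefore not support for the difference, and the levels are a description. Over all treatments the 14 WT libraries held 0 to 6 fragments of Cox4i2 (median 2) and the 14 S983A libraries 184.5 to 463 (median 290). The ratio of fragments per library total was 141 (exact 95% interval 97.1 to 215, counting error only). Cox4i1 was at 681 to 796 TPM in the S983A libraries and Cox4i2 at 9.03 to 20.4 TPM, so Cox4i2 was the minor form. Its position on rn6 is chr3:148234546-148245418, where the median difference of the 50 neighbouring genes tested was -0.08.

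Ndufa4, a subunit first assigned to complex I and now placed in complex IV, was at 843 and 874 TPM in WT CON and at 370 and 351 TPM in S983A CON, a fall to 0.42 of the WT level (log2 -1.25, SE 0.0446, adjusted p = 3.74e-18). The 14 WT libraries, at 843 to 1036 TPM, did not overlap with the 14 S983A libraries, at 347 to 468 TPM. Its neighbours at chr4:38233680-38240848 had a median of 0.04. Its paralog Ndufa4l2 was higher in S983A, at 5.53 and 6.24 TPM against 1.99 and 3.37 TPM (0.93, adjusted p = 3.64e-06), with neighbours at 0.05.

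For 6 subunits the neighbouring genes differed between genotypes too, with a median beyond 0.3 in either direction, and all 6 moved with them. Ndufa10 (0.85) and Ndufv2 (0.65) on chromosome 9 had neighbours at 0.79 and 0.77. Sdhb (0.90), Ndufs5 (0.60) and Uqcrh (0.52) on chromosome 5 had neighbours at 0.65, 0.52 and 0.49. Cox6a1 (-0.65) on chromosome 12 had neighbours at -0.64. Their differences therefore cannot be told apart from those of the stretch they lie in. Sdhb, the iron-sulfur subunit of succinate dehydrogenase, was at 134 and 133 TPM in WT CON and at 247 and 252 TPM in S983A CON, which put it above the other 3 subunits of its complex in S983A, at 105 to 156 TPM. Cox6a1 was at 1423 and 1481 TPM in WT CON and at 869 and 986 TPM in S983A CON. Ndufa10l1, at chr6:62796951-62798384, is a near copy of Ndufa10 at 4.01 and 2.68 TPM in WT CON and 6.83 and 6.32 TPM in S983A CON. Its difference of 0.82 against neighbours at -0.12 is uncertain, since reads may be shared with Ndufa10. Outside these stretches, 4 of 70 subunits were called, Ndufa10l1 among them, whereas 19.4% of all genes were called wherever they lie.

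**Figure D5:**
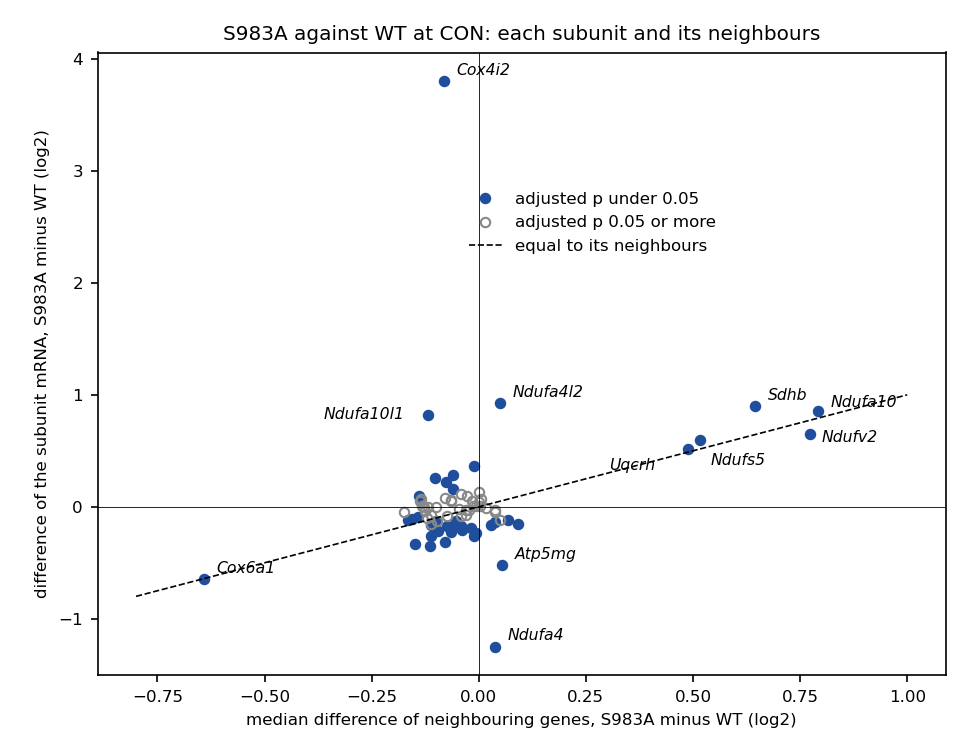
Difference of each subunit mRNA between S983A and WT at CON (vertical axis, log2) against the median difference of up to 25 neighbouring genes on each side in rn6 order (horizontal axis, log2). Filled points have an adjusted p under 0.05 and the dashed line marks equality, with Cox4i2 (3.81) and Ndufa4 (-1.25) far from it and Ndufa10 (0.85) and Cox6a1 (-0.65) close to it.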

How the data were processed

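Bulk RNA-seq libraries were prepared by the authors from INS-1 total RNA with ERCC spike-ins, aligned to rn6 with STAR 2.5.3a and quantified as TPM per transcript with HOMER 4.11.1. The deposited TPM values were used as given, and the deposited counts hold the authors' counts of 92 ERCC sequences only. Columns were matched to samples by genotype, treatment, hours and replicate. The authors' own calls used DESeq2 1.24.0 with spike-in correction. Fragments could be recovered from TPM, length and the ERCC counts. Of the values checked, all below 1000 fragments, 100% were whole at 2 reads per fragment (23.6% by chance). The tolerance was 0.05 reads plus the rounding error of the TPM.

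Each symbol was represented by its most abundant transcript over the 28 libraries, and symbols averaging under 1 TPM were left untested. Log2(TPM + 1) was fitted with limma 3.58.1 in R 4.3.3, with a mean for each of 14 groups and 14 residual degrees of freedom. The 19 comparisons were 12 treatments against CON, genotype at CON and 6 interactions, two-sided, with Benjamini-Hochberg adjustment over 10275 genes. The fitting script was tested on simulated data. Alternatives were a pseudocount of 0.1, no filter, median-centring, ERCC scaling, edgeR 4.0.16 on recovered fragments, a replicate block, no fold minimum and leaving out each library. Replicates correlated at 0.998 to 0.999 over genes.

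Named subunits were those called in a comparison (the 10 largest where more were called), the 3 largest rises and falls in 6 main comparisons, the extremes of each complex and the isoforms. Subunits and lists were chosen with earlier results of these data known. Promoter windows and positions on GRCr8 come from RefSeq, and positions on rn6 from the table. A marker on the other-islet list is not reported here.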

Additional observations from a re-analysis of the deposited data

Results flagged for a closer look

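The response of some subunit mRNAs differed between the genotypes by the test of the interaction itself (limma, adjusted p under 0.05). The number with a lower response in S983A was 4 at 8 h Ex-4, 22 at 16 h Ex-4, 1 at 1 h FSK, 22 at 8 h FSK and 18 at 16 h FSK. The number with a higher response was 0, 2, 0, 10 and 9 in the same order. Over all genes 4.42%, 12.9%, 2.93%, 23.3% and 22.1% had a lower and 14.2%, 29.1%, 2.91%, 30.3% and 35.9% a higher response, so that the lower counts at 8 and 16 h FSK, out of 76, were near the share of all genes.

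At 16 h Ex-4 the interactions of the named subunits were -0.43 for Uqcr10, -0.42 for Ndufa11, -0.42 for Cox6b1, 0.27 for Uqcrq and 0.12 for Cox7a2l (log2). At 8 h FSK they were -0.75 for Ndufs7 and -0.66 for Ndufa4l2. At 16 h FSK they were -1.14 for Ndufa4l2, -0.39 for Ndufb2, -0.38 for Ndufs7, 0.28 for Atp5mc3, 0.28 for Sdha and 0.28 for Atp5md. Ndufa4l2 had 41.5 to 172.5 fragments per library, the fewest after Cox4i2 among these genes, and its CON level already differed between the genotypes. With 2 libraries a group, outlying single samples could not be tested.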

How the results depend on the processing

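Centring and ERCC scaling shift all genes of a library by nearly the same amount. The gap between the subunits and the median gene could therefore hardly change, and its stability is not a separate check. Counts per direction moved much. The spread was estimated from 2 libraries a group, pooled over 14 residual degrees of freedom.

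After median-centring the number called was 1 at WT 8 h Ex-4, 1 at WT 16 h Ex-4, 21 at WT 8 h FSK and 17 at WT 16 h FSK. Of all genes 8.66%, 10.4%, 36.8% and 31.2% were called in the same order. Higher and lower subunits were then 65 and 0 at WT 16 h Ex-4 (33.9% and 25.1% of all genes) and 63 and 0 at WT 8 h FSK (44.6% and 38.1%). They were 0 and 40 for the 16 h Ex-4 interaction (16.1% and 25.2%). At WT 16 h FSK 2 were lower (36.6%), for genotype 11 were lower (30.5%) and for the 16 h FSK interaction 4 were higher (28%). With ERCC scaling the number called was 1 at WT 8 h Ex-4, 8 at WT 16 h Ex-4 and 26 at WT 16 h FSK. It was 20 at S983A 16 h FSK and 22 for the 16 h Ex-4 interaction. Of all genes 8.72%, 12.2%, 32.7%, 34.3% and 16.6% were called in the same order. Higher and lower were 71 and 0 at WT 16 h Ex-4 (33.8% and 9.37% of all genes) and 65 and 1 at WT 16 h FSK (42% and 24.4%). They were 25 and 3 for genotype (34% and 16%), 1 and 68 for the 16 h Ex-4 interaction (2.89% and 43%) and 0 and 10 for the 16 h FSK interaction (14.2% and 18.8%). In edgeR the number called was 1 at WT 8 h Ex-4, 1 at WT 16 h Ex-4, 14 at WT 8 h FSK, 14 at WT 16 h FSK and 2 at S983A 8 h Ex-4. Of all genes 11.2%, 12.7%, 41.4%, 34.9% and 8.45% were called in the same order. Higher and lower were 60 and 0 at WT 16 h Ex-4 (28.3% and 32% of all genes) and 59 and 3 at WT 8 h FSK (38.9% and 43.9%). They were 0 and 37 for the 16 h Ex-4 interaction (18.6% and 21.3%) and 4 and 28 for the 16 h FSK interaction (27.3% and 29.9%). At WT 16 h FSK 2 were lower (41.7%) and for genotype 12 were lower (31.1%).

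With no fold minimum the number called at 1, 8 and 16 h was 2, 25 and 34 for Ex-4 and 12, 52 and 53 for FSK in WT, and 2, 31 and 28 for Ex-4 and 18, 58 and 52 for FSK in S983A. It was 42 for genotype, and for the interactions 4 and 24 at 8 and 16 h Ex-4 and 1, 32 and 27 at 1, 8 and 16 h FSK. These counts are to be read against the shares of all genes higher and lower given above for each comparison. A pseudocount of 0.1 gave 1 call each at WT 1 h Ex-4, WT 8 h Ex-4 and the 16 h Ex-4 interaction, with the shares of all genes not given for that fit.

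Leaving out each library gave 0 to 1 calls at WT 8 h Ex-4, at WT 16 h Ex-4 and at S983A 8 h Ex-4 (0 without replicate 2 of S983A 8 h Ex-4). It gave 1 to 2 at S983A 16 h Ex-4 (2 without replicate 1 of S983A CON) and for the 8 h FSK interaction (1 without replicate 1 of WT CON or of S983A 8 h FSK). It gave 2 to 4 at WT 8 h FSK and 3 to 7 at WT 16 h FSK, with 4 and 3 without replicate 1 of WT CON. At WT 16 h Ex-4 18 to 33 subunits were higher and 1 to 4 lower, and at WT 16 h FSK 7 to 14 were lower (7 without replicate 2 of WT CON or of WT 16 h FSK). For the 16 h Ex-4 interaction 1 to 5 were higher and 11 to 25 lower. The shares of all genes are not given for these reduced fits. Whether the subunits moved more than other genes there cannot be read from these counts.

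At WT 16 h Ex-4 the sign turned for Atp5mc2 (0.041 centred, 0.18 per ERCC, 0.0043 in edgeR), Ndufa11 (0.068, 0.20 and 0.031) and Sdhd (0.038 centred, 0.17 per ERCC). It turned for Ndufb4 at WT 16 h FSK (0.066 per ERCC), for the 16 h Ex-4 interactions of Cox7a2l (-0.014 centred, -0.31 per ERCC) and Uqcrq (-0.16 per ERCC), and for the genotype difference of Ndufv2 less its neighbours (-0.12). The cause was not tested.

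Replicate numbers did not pair the samples (median correlation of deviations 0.003 over 91 pairs of groups, -0.28 to 0.283). With the replicate number as a block, 0 subunits were called at WT 16 h Ex-4, 2 at WT 8 h FSK and 5 at WT 16 h FSK, and no other count or call changed sides.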

Other observations

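Cox6a2, the heart and muscle form of subunit 6a of cytochrome c oxidase, had a mean under 1 TPM and was outside the comparisons above. It was at 0 and 1 fragments in WT CON, at 1.5 and 2 fragments after 8 h FSK and at 19 fragments in both libraries after 16 h FSK. In S983A it was at 0 and 2 fragments in CON, at 0 and 3 after 8 h FSK and at 33 and 41 after 16 h FSK. In the fit without a filter on low values the log2(TPM + 1) differences at 16 h FSK were 1.27 in WT and 1.80 in S983A. At 16 h Ex-4 the differences were 0.26 and 0.45. These values lie near the floor of the scale. The more abundant of its 2 transcripts, used here, has a RefSeq record of the non-coding type. The ubiquitous form Cox6a1 was at 1550 and 1524 TPM in WT 16 h FSK. Cox6a2 was chosen for description after its values were seen, so no p-value is given for it.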
